A study of Mus musculus with 4 samples.

Results

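The dual-specificity MAP kinase phosphatases are enzymes that switch off MAP kinases, and 10 mouse genes of the family are described here: Dusp1, Dusp2, Dusp4, Dusp5, Dusp6, Dusp7, Dusp8, Dusp9, Dusp10 and Dusp16. The members were chosen by name, as every non-control probe of the array whose gene name is 1 of these 10. This gave 13 probes for the 10 genes, out of 39429 non-control probes with 30175 different names. Dusp7, Dusp8 and Dusp16 have 2 probes each and every other member has 1. Each of the 13 probes is printed as a single spot on each array.

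The cells were NIH-3T3:Per2-Luc, a line of mouse fibroblasts that carries luciferase under the Per2 promoter, after a short and severe exposure to hydrogen peroxide that the study calls a cOS-pulse (critical oxidative stress). The study asks which genes respond early, when the reporter surges, and which show circadian changes later. RNA of each condition was labeled with 1 dye and hybridized to 1 of 4 arrays on 1 slide. The control array, 0mM_4h, carries RNA of cells that received no H2O2 and had their medium replaced with fresh medium, and its label places it at 4 h. The study describes fresh medium as a resetting stimulus too, though a comparatively weak one, so the control is not an unstimulated baseline. The array 5mM_4h carries RNA of cells collected 4 h after a pulse of 5 mM H2O2 that lasted 10 min. The arrays 5mM_20h and 5mM_32h carry RNA collected 20 h and 32 h after the same pulse. There is 1 array per condition and no replicate, so no test was made. The small number of arrays limits how precise any value can be. The 3 time points were all compared with the same control array, so their ratios share its values, and no untreated array at 20 h or 32 h was deposited.

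MAP kinases (ERK, JNK and p38) are activated when kinases phosphorylate a threonine and a tyrosine in their activation loop, and dual-specificity phosphatases remove both phosphates. Dusp1, Dusp2, Dusp4 and Dusp5 encode nuclear enzymes whose genes are themselves induced by growth factors and stress, Dusp6, Dusp7 and Dusp9 encode enzymes of the cytoplasm that prefer ERK, and Dusp8, Dusp10 and Dusp16 encode enzymes that prefer JNK and p38. In fibroblasts several of them are known as feedback genes, since the pathway they switch off also raises their transcription.

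The deposited signal of a spot is a fluorescence intensity with a spatial background trend subtracted. Its log2, less the 75th percentile of all non-control probes of the array, is called the scaled log2 signal. A value of 0 is thus the 75th percentile of the array, and 1 unit is a 2-fold difference. The error given after a value is the error of the scanner software for the spot, and it does not cover differences between cultures. A probe was called detected where the scanner software flagged its signal as well above background. The number of probes detected was 21057 (53.4%) in the control, 23295 (59.1%) at 4 h, 21750 (55.2%) at 20 h and 20762 (52.7%) at 32 h. Of the 13 phosphatase probes, 9 were detected in the control, 12 at 4 h, 10 at 20 h and 8 at 32 h. 8 of the 13 probes, of 7 genes, were detected on all 4 arrays, 5 were detected on 1 to 3 arrays, and 0 were detected on none. 4 of those 5 were detected on just 1 array, namely Dusp2 at 20 h, and Dusp5, 1 probe of Dusp8 and 1 probe of Dusp16 at 4 h. No spot of the members carried an outlier flag.

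The names of the probes were checked against RefSeq, where the accession listed for 12 of the 13 probes belongs to the gene of that name. The other probe, 1 of the pair for Dusp7, is listed with a cDNA record that has no RefSeq entry. The cells were checked against lists of marker genes. All 8 fibroblast markers were detected on all 4 arrays, with a mean scaled log2 signal of 4.82 in the control, 4.35 at 4 h, 4.24 at 20 h and 4.46 at 32 h. Of the 3 muscle markers, Myod1, Myog and Des, 0 were detected on any array. Of the 4 epithelial markers, Epcam, Cdh1 and Krt18 were detected on none, and the mean of the list, -5.28, -5.01, -5.49 and -5.15 in the same order of arrays, rests mostly on these undetected spots. Krt8, with the highest signal of the list, had -0.89, 0.28, -0.52 and -0.61. Of the 4 leukocyte markers, 3 were detected on all 4 arrays and Ptprc on none, and the mean was -1.14, -0.34, -1.26 and -1.06. Itgam had the highest signal of this list, at 4.35, 4.92, 3.42 and 3.47. Within this list Cd68 had -1.33, 0.75, -1.13 and -1.06. Of the 3 endothelial markers, 2 were detected on all 4 arrays and Cdh5 on 3. The list had a mean of -2.03, -1.05, -1.65 and -2.01, with the highest signal for Kdr and with Cdh5 at -4.12, -2.25, -3.41 and -4.57. The 3 neuronal markers were detected on all 4 arrays, with a mean of 0.71, 1.01, 0.63 and 0.60. Among them Snap25 had the highest signal, at 3.92, 4.48, 2.92 and 3.03. The means of these last 3 lists and the signal of Krt8 were higher at 4 h than in the control, as were most phosphatase signals, and their part in the results was not tested.

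A ratio was measured where a probe was detected on both arrays. Where it was detected on 1 of them, the ratio is a bound, in which the dim side is set to its own signal or to the lowest detected signal of its array, whichever is higher. There is no ratio where neither array detected the probe or where the detected signal did not exceed that limit. The lowest detected scaled log2 signal was -4.76 in the control, -4.94 at 4 h, -5.11 at 20 h and -4.73 at 32 h. A probe is said to have risen or fallen where its ratio reached 2-fold, a log2 ratio of 1, in either direction.

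At 4 h, 4 of the 13 phosphatase probes (30.8%) had risen over the control, compared with 6.77% of all 39429 probes. They were those of Dusp4, Dusp5, Dusp10 and 1 of the pair for Dusp8, 3 by measured ratios and Dusp5 by a bound. Of the 13 probes 0 had fallen, compared with 4.94% of all probes. There were 9 measured ratios, 2 bounds and 2 probes with no ratio. The median of the 9 measured ratios was 0.80, and that of all 20392 probes measured in this comparison was 0.17. These arrays measure RNA of whole cultures, in which fewer cells of a type and less RNA per cell cannot be told apart.

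The split between probes higher and lower at 4 h depends on how the arrays are put on 1 scale. The 75th percentile before scaling differed from that of the control by -0.28 at 4 h, 0.33 at 20 h and 0.18 at 32 h on the log2 scale. Scaling by the spike-in control probes moved the median of all probes at 4 h by -0.40, scaling by the median by -0.36, no scaling by -0.28, quantile normalization by -0.19, and the 75th percentile of the commonly detected probes (those detected on every array) by -0.12. With the spike-in probes, 3.33% of all probes had risen and 9.70% had fallen, so the higher probes were 25.6% of those past 2-fold instead of 57.8%, and 25.9% without the 1 spike-in probe that deviated most from the others. Their share was 28.1% with the median, 34.0% without scaling, 42.1% with quantile normalization and 46.7% with the 75th percentile of the commonly detected probes. The number of phosphatase probes that had risen was 4 under each of these scalings. Of all probes, 3.54% had risen with the median, 4.06% without scaling and 5.01% with quantile normalization. The share was 5.33% with the 75th percentile of the commonly detected probes and 3.37% without the deviant spike-in probe. Of the 9 measured phosphatase ratios at 4 h, 7 were above 0 and the 2 of Dusp7 were below 0, and each of the 9 kept its sign under every scaling. Since each other scaling moved the median of all probes at 4 h downward, the kept signs of Dusp7 say little.

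**Figure D1:**
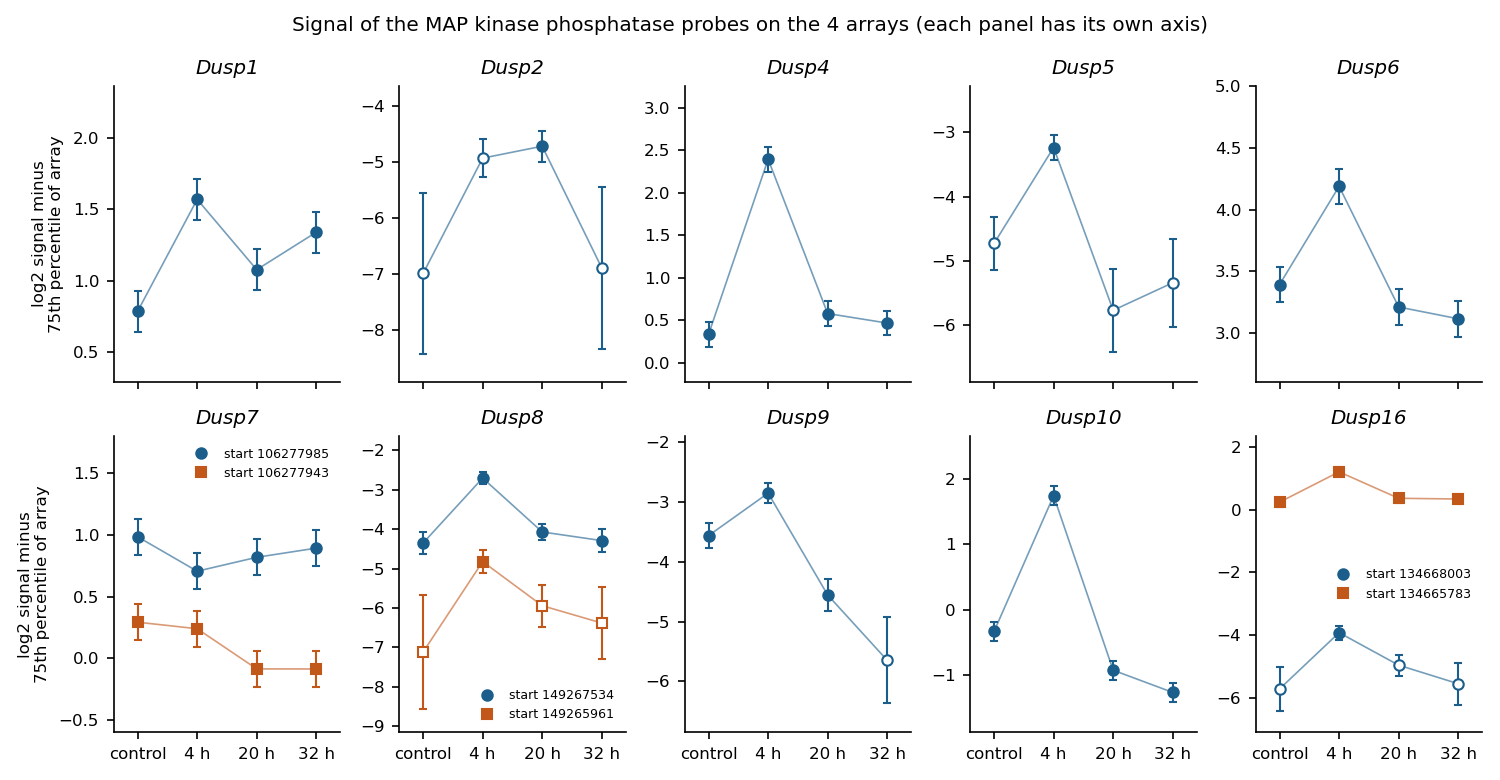
Scaled log2 signal (y axis, log2 signal minus the 75th percentile of the array) of each phosphatase probe on the 4 arrays (x axis), with the scanner error as bars, filled symbols where the probe was detected and open symbols where it was not. Each panel has its own axis, and the probe of Dusp10 stands at 1.74 at 4 h and at or below -0.33 on the other arrays.

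Among the nuclear phosphatases, Dusp1 encodes an enzyme that acts on p38, JNK and ERK and was first found as a gene induced by growth factors and oxidative stress. Its probe is listed at chr17:26642526-26642536 on the minus strand in the array annotation (mm9), which gives 11 bases for it. All probe positions are from this annotation, and which exon or untranslated region they lie in was not analysed here. The scaled log2 signal of Dusp1 was 0.78 in the control, 1.57 at 4 h, 1.08 at 20 h and 1.34 at 32 h. It was lowest in the control, and no array stood more than 2 errors from the next in the order. With all 8 spike-in probes and without scaling, the 20 h array stood more than 2 errors above the control. The 4 h array was the highest here, while the 32 h array was the highest with the median, with the spike-in probes (also without the deviant 1) and without scaling. The log2 ratio of Dusp1 over the control was 0.79 ± 0.20 at 4 h (1.73-fold), 0.29 ± 0.20 at 20 h and 0.56 ± 0.20 at 32 h. Dusp1 thus stayed below 2-fold at all 3 time points, with a positive ratio under every scaling. When the arrays were scaled by the spike-in probes, its ratios were 0.38 at 4 h, 0.49 at 20 h and 0.71 at 32 h.

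Dusp4 encodes a nuclear enzyme that acts on ERK and JNK, and its probe lies at chr8:35882045-35882104 on the plus strand. Its intensity was 1400 ± 140 in the control, 4790 ± 479 at 4 h, 2080 ± 208 at 20 h and 1730 ± 173 at 32 h, and the scaled log2 signals were 0.33, 2.39, 0.58 and 0.47. The 4 h array stood apart, 1.82 above the 20 h array, while the control, 20 h and 32 h arrays lay within 2 errors of their neighbors in the order. Dusp4 had risen at 4 h by a log2 ratio of 2.06 ± 0.20 (4.17-fold), above the ratio of 98.9% of the probes measured. The ratio at 4 h lay between 1.66 and 2.06 under the alternatives of processing. At 20 h and 32 h the log2 ratio of Dusp4 was 0.24 ± 0.20 and 0.13 ± 0.20.

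Dusp5 encodes a nuclear enzyme that is selective for ERK, and its probe lies at chr19:53615682-53615741 on the plus strand. Its intensity was 41.8 ± 12.1 in the control, 96.8 ± 12.7 at 4 h, 25.6 ± 11.5 at 20 h and 30.9 ± 14.6 at 32 h. The scaled log2 signals of Dusp5 were -4.73, -3.23, -5.77 and -5.34, and just the 4 h signal was detected. Dusp5 had risen at 4 h by a bound of 1.49 (2.81-fold). The undetected control stood here at its own signal, above the lowest detected one of -4.76. This value is thus the plain difference of the 2 signals, with an error of 0.46, and is no firm lower limit. It was 1.09 with the spike-in probes and fell short of 2-fold, at 0.67, with normexp background correction. No ratio was taken at 20 h or 32 h.

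Dusp2 encodes a nuclear enzyme known best from activated lymphocytes, and its probe lies at chr2:127163930-127163989 on the plus strand. Its intensity was 8.74 ± 8.70 in the control, 29.9 ± 6.88 at 4 h, 53.0 ± 10.1 at 20 h and 10.6 ± 10.6 at 32 h. It was close to background on every array, and just the 20 h signal, -4.72 on the scaled log2 axis, was detected. Its log2 ratio at 20 h was bounded at 0.04 over the control and at 0.01 over the 32 h array.

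Among the cytoplasmic phosphatases, Dusp6 encodes the ERK-selective enzyme known best as a feedback gene of growth factor signaling. Its probe lies at chr10:98729985-98730044 on the plus strand. The scaled log2 signal of Dusp6 was 3.39 in the control, 4.19 at 4 h, 3.21 at 20 h and 3.12 at 32 h. The 4 h array was the highest, 0.80 above the control, a gap within 2 errors with the spike-in probes, and the control, 20 h and 32 h arrays lay within 2 errors of their neighbors. The log2 ratio of Dusp6 was 0.80 ± 0.20 at 4 h (1.74-fold), short of 2-fold and 0.39 with the spike-in probes, and -0.28 ± 0.20 at 32 h. At 20 h it was -0.18 ± 0.20, a sign that turned positive without scaling and with all 8 spike-in probes (0.02), but not without the 1 deviant spike-in probe (-0.11).

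Dusp7 encodes a relative of Dusp6 with the same preference for ERK. Its probes overlap by 16 bases and so share part of their target, at chr9:106277985-106278044 and chr9:106277943-106278000 on the plus strand. The first probe, starting at 106277985, had scaled log2 signals of 0.98 in the control, 0.71 at 4 h, 0.82 at 20 h and 0.89 at 32 h. The other probe, starting at 106277943, had 0.29, 0.24, -0.09 and -0.09. No array stood more than 2 errors from the next for either probe. The control was the highest array for both, except for the first probe with all 8 spike-in probes and without scaling. The log2 ratios at 4 h were -0.28 ± 0.20 and -0.05 ± 0.20, both below 0 under every scaling, and -0.68 and -0.46 with the spike-in probes. The first was more than 2 errors below 0 in 4 of the 7 settings. Every other scaling moved the median of all probes at 4 h downward, so the kept signs were nearly given in advance. The second probe had -0.38 ± 0.20 at 20 h and -0.38 ± 0.21 at 32 h. The first probe had -0.17 ± 0.20 and -0.09 ± 0.20, signs that turned positive without scaling and with all 8 spike-in probes, but not without the 1 deviant spike-in probe (-0.09 at both times).

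Dusp9 encodes a cytoplasmic enzyme known best from placenta, and its probe lies at chrX:70888467-70888526 on the plus strand. Its intensity was 93.9 ± 13.9 in the control, 126 ± 14.5 at 4 h, 59.3 ± 11.4 at 20 h and 25.0 ± 12.5 at 32 h. The scaled log2 signals of Dusp9 were -3.56, -2.85, -4.55 and -5.65, and the last was not detected. Highest was the 4 h array and next the control, with gaps of more than 2 errors to the control and from there to the 20 h array. Over 6 other scalings and normexp background correction, 7 settings in all, this order was kept, while the first gap exceeded 2 errors in 2 of them and the second in 5. The log2 ratio of Dusp9 was 0.71 ± 0.27 at 4 h (1.64-fold), and 0.31 with the spike-in probes. At 20 h it was -0.99 ± 0.35, just short of 2-fold, and under the alternatives it lay between -1.01, with the 75th percentile of the commonly detected probes, and -0.53, with normexp background correction. At 32 h Dusp9 had fallen by a bound of -1.17 (at least 2.25-fold lower), which was short of 2-fold without scaling, at -0.99, and with normexp background correction, at -0.47.

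Among the phosphatases of JNK and p38, Dusp10 encodes an enzyme that is found in both nucleus and cytoplasm and is known best from immune cells. Its probe lies at chr1:185898608-185898667 on the plus strand. Its intensity was 878 ± 88.4 in the control, 3050 ± 305 at 4 h, 733 ± 73.8 at 20 h and 520 ± 53.2 at 32 h, and the scaled log2 signals were -0.33, 1.74, -0.93 and -1.27. The 4 h array was high, and the 20 h and 32 h arrays were below the control. The control stood more than 2 errors above the 20 h array (in 5 of the 7 settings, not with all 8 spike-in probes or without scaling). The 20 h and 32 h arrays lay within 2 errors of each other, except in 2 of the 7 settings, with the median and without scaling. Dusp10 had risen at 4 h by a log2 ratio of 2.08 ± 0.20 (4.22-fold), above the ratio of 98.9% of the probes measured and between 1.67 and 2.08 under the alternatives. At 20 h the ratio of Dusp10 was -0.59 ± 0.21, and at 32 h it was -0.93 ± 0.21, both short of 2-fold and negative under every scaling. Of the probes measured at 32 h, 1.81% had a ratio below that of Dusp10.

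Dusp8 encodes an enzyme that acts on JNK and p38 and is known best from brain, heart and muscle. Its probes lie 1573 bases apart on the minus strand, at chr7:149267534-149267593 and chr7:149265961-149266020. The probe starting at 149267534 had an intensity of 54.3 ± 10.3 in the control, 140 ± 15.3 at 4 h, 83.1 ± 11.9 at 20 h and 64.1 ± 12.6 at 32 h. The scaled log2 signals of this probe were -4.35, -2.70, -4.07 and -4.29, detected on all 4 arrays. The 4 h array stood 1.37 above the 20 h array, and the control, 20 h and 32 h arrays lay within 2 errors of their neighbors. By this probe Dusp8 had risen at 4 h by a log2 ratio of 1.65 ± 0.32 (3.14-fold), above that of 97.8% of the probes measured and between 1.08 and 1.65 under the alternatives. The ratio was 0.28 ± 0.34 at 20 h and 0.06 ± 0.39 at 32 h. The second probe, starting at 149265961, had scaled log2 signals of -7.12, -4.82, -5.94 and -6.38. It too was highest at 4 h, the only array that detected it, and its signal there was too low for a bound to be taken.

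Dusp16 encodes an enzyme that moves between nucleus and cytoplasm and prefers JNK. Its probes lie 2220 bases apart on the minus strand, at chr6:134665783-134665842 and chr6:134668003-134668062. The probe starting at 134665783 had scaled log2 signals of 0.24 in the control, 1.20 at 4 h, 0.36 at 20 h and 0.34 at 32 h. The 4 h array stood 0.84 above the 20 h array, a gap that exceeded 2 errors in 3 of the 7 settings, and the control, 20 h and 32 h arrays lay within 2 errors of their neighbors. The log2 ratio of this probe was 0.97 ± 0.20 at 4 h (1.96-fold), just under the threshold, 0.12 ± 0.20 at 20 h and 0.10 ± 0.20 at 32 h. Under the alternatives its ratio at 4 h lay between 0.56 and 0.97. The second probe of Dusp16, starting at 134668003, had scaled log2 signals of -5.73, -3.93, -4.97 and -5.56, and was detected at 4 h alone. Its log2 ratio at 4 h was bounded at 0.83 (at least 1.78-fold), and no ratio was taken at 20 h or 32 h. This bound lay between 0.38 and 0.83 under the alternatives.

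**Figure D2:**
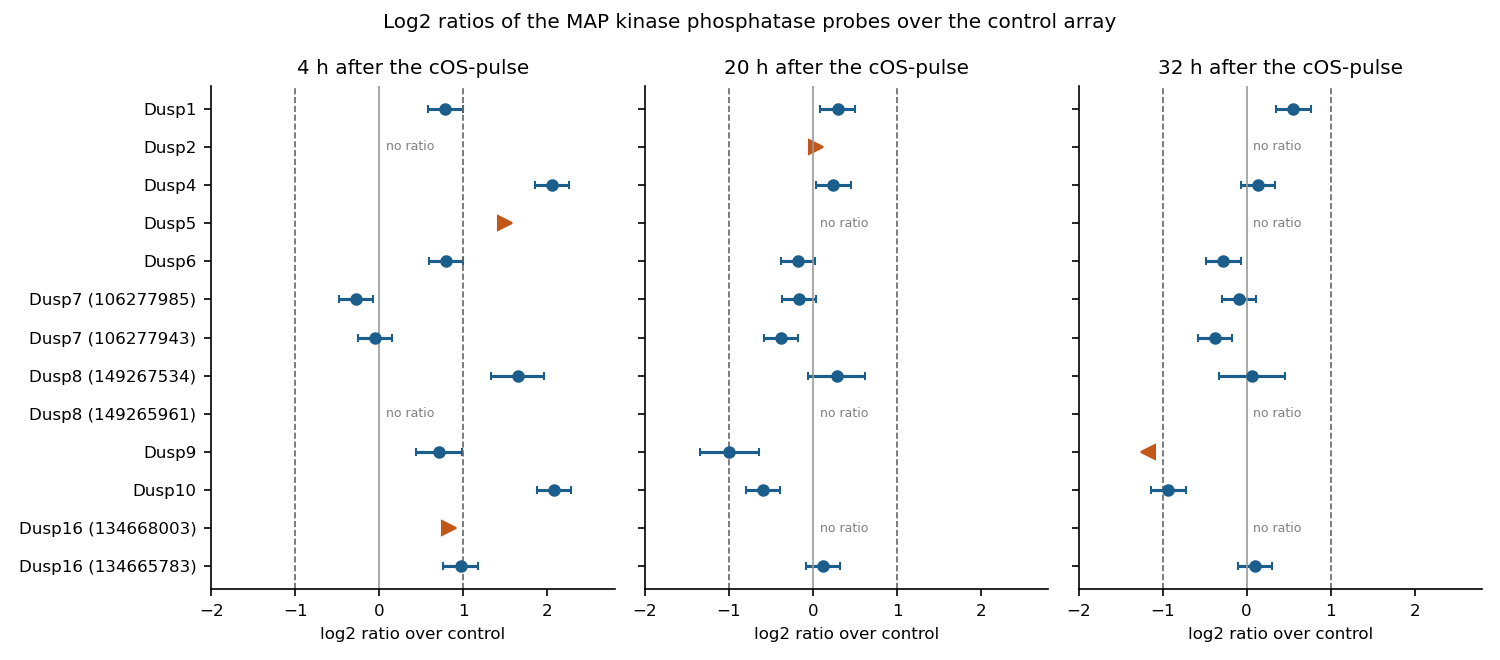
Log2 ratio over the control (x axis) of each phosphatase probe (y axis) at 4 h, 20 h and 32 h, with measured ratios as circles with the scanner error, bounds as triangles and dashed lines at 2-fold. At 4 h the probes of Dusp4, Dusp5, Dusp10 and 1 of Dusp8 lie past 2-fold, and at 32 h the bound of Dusp9 does.

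At 20 h, 0 of the 13 probes had risen over the control, compared with 0.763% of all probes, and 0 had fallen, compared with 1.87%. There were 9 measured ratios, 1 bound and 3 probes with no ratio. Their measured median was -0.17, and that of all 20448 probes measured was -0.00. Of the 9 measured ratios, 4 were above 0 (Dusp1, Dusp4, Dusp8 and Dusp16) and 5 below (Dusp6, Dusp9, Dusp10 and the pair of Dusp7), where Dusp6 and the Dusp7 probe starting at 106277985 turned positive without scaling and with all 8 spike-in probes, but not without the deviant 1. Scaling by the median moved the median of all probes at 20 h by 0.10, the spike-in probes by 0.20 and no scaling by 0.33. The share of higher probes among those past 2-fold was 29.0%, and it was 39.1%, 50.3% and 65.4% with these scalings. Without the deviant spike-in probe the shift at 20 h was 0.08 and the share 36.0%, so the larger spike-in values rest on that 1 probe.

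At 32 h, 0 of the 13 probes had risen over the control, compared with 1.15% of all probes, and 1 (7.69%), that of Dusp9, had fallen, compared with 1.43%. With 1 probe past the threshold by a bound, the count says little about the family. There were 8 measured ratios, 1 bound and 4 probes with no ratio. The measured median was -0.02, and that of all 19969 probes measured was -0.01. The spike-in probes moved the median of all probes at 32 h by 0.16 and no scaling by 0.18, and the share of higher probes among those past 2-fold went from 44.4% to 61.1% and 62.7%. Without the deviant spike-in probe the shift at 32 h was 0.00 and the share 44.8%, so the spike-in values there rest on that 1 probe too.

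Between the later time points, 20 h over 32 h, 0 of the 13 probes were higher by 2-fold, compared with 0.497% of all probes, and 0 were lower, compared with 1.06%. There were 8 measured ratios, and their median was 0.06, while that of all 20247 probes measured was 0.01. The measured ratios ranged from -0.26 ± 0.20 for Dusp1 to 0.34 ± 0.21 for Dusp10. For Dusp9 the ratio was bounded at 0.17. Without scaling, the median of all probes moved by 0.15 and the share of higher probes went from 31.9% to 42.1%.

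Side by side, the measured probes at 4 h fall into a group that had risen (Dusp4, Dusp10 and the first probe of Dusp8), a group with ratios from 0.71 to 0.97 (Dusp1, Dusp6, Dusp9 and the first probe of Dusp16), and the pair of Dusp7 below 0. The nuclear phosphatases had ratios of 2.06 for Dusp4 and 0.79 for Dusp1, with a bound of 1.49 for Dusp5 and no ratio for Dusp2. The JNK and p38 phosphatases had ratios of 2.08, 1.65 and 0.97 for Dusp10 and the first probes of Dusp8 and Dusp16. The cytoplasmic ERK phosphatases Dusp6 and Dusp9 had 0.80 and 0.71, with Dusp7 at -0.28 and -0.05. By 32 h the members that had risen at 4 h differed, with a ratio of 0.13 for Dusp4, 0.06 for Dusp8 and -0.93 for Dusp10, while Dusp5 had no ratio. The ratio of Dusp1 was then 0.56. These differences were not tested.

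The genes whose 3 ratios over the control were most like those of Dusp4 and Dusp10 were sought among 18623 probes with a gene symbol detected on all 4 arrays, by Euclidean distance on the log2 scale. Nearest to Dusp10 were Klf4 at a distance of 0.27, with log2 ratios of 2.11 at 4 h, -0.78 at 20 h and -1.13 at 32 h, then Il1rl1 at 0.31 and Cldn15 at 0.35. Nearest to Dusp4 were Dohh at a distance of 0.04, with ratios of 2.05, 0.20 and 0.13, then Fastk and Gdf9, each at 0.10. Each of these is a likeness over 3 ratios that share 1 control array.

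The other genes of the MAP kinase pathways were taken from 10 lists, with the brightest probe of each gene. Of all 27431 genes with a name other than a probe number, 7.04% had risen and 5.46% had fallen at 4 h, and the median log2 ratio over the 17155 with a ratio or bound was 0.20. Of 13 MAP kinases, 2 had risen, Mapk12 (2.26 ± 0.30) and Mapk6 (1.14 ± 0.20), and 0 had fallen, with a median of 0.04. Mapk6 stayed past 2-fold under 1 of the 6 other scalings. Of 7 MAP2 kinases, Map2k6 had fallen (-1.22 ± 0.20), and the median was -0.08. Of 17 MAP3 kinases, Map3k10 had risen (1.60 ± 0.31) and Map3k4 had fallen (-1.57 ± 0.20), with a median of 0.09. Of 11 kinases activated by MAP kinases 0 had risen or fallen (median 0.35), and the same held for 6 scaffolds (median 0.28).

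Among phosphatases outside the family, 2 of 16 atypical dual-specificity phosphatases had risen, Dusp3 (1.47 ± 0.20) and Styxl1 (a bound of 1.86). Another 2 had fallen, Dusp14 (-1.72 ± 0.21) and Dusp23 (-1.46 ± 0.26), and the median was -0.03. Of 8 other phosphatases that act on MAP kinases, Ppm1b had risen (1.17 ± 0.20), past 2-fold under 1 of the 6 other scalings, and the median was 0.57. Of 7 Sprouty and Spred genes, inhibitors of ERK signaling, Spry4 (1.47 ± 0.25) and Spry2 (1.12 ± 0.24) had risen, Spry2 under 0 of the 6 other scalings, with a median of 0.41.

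Of 17 genes induced through ERK, 5 had risen, with Fosb at 2.29 ± 0.23 and Fos at a bound of 2.01, and 1 had fallen. The one that had fallen was Etv4 (-1.32 ± 0.20), named after its value was seen. The median of this list was 0.83. Of 13 genes induced through JNK and p38, 6 had risen, with Ptgs2 (3.73 ± 0.06) and Il6 (3.34 ± 0.20) the largest, and 0 had fallen, with a median of 0.93. The medians of the lists of other phosphatases, of Sprouty and Spred genes, and of genes induced through ERK or through JNK and p38 were positive under all 6 other scalings. Those of the MAP2 kinases and the atypical phosphatases were negative under all 6. The median of the MAP kinases is itself a bound, that of Mapk10 (named after its value was seen), which had no ratio under any of the 6. That median turned negative under all 6, taken over 8 to 10 genes in place of 11, that of the MAP3 kinases under all but quantile normalization, that of the scaffolds (over 5 or 6 genes) with the median, the spike-in probes and quantile normalization, and that of the kinases activated by MAP kinases with the median or the spike-in probes. With the spike-in probes, 3 MAP kinases, 2 MAP3 kinases and 1 kinase activated by MAP kinases had fallen, where 9.70% of all probes had. Among genes induced through ERK, 4 had then risen and 2 had fallen, and among those induced through JNK and p38, 5 had risen. Of all probes, 3.33% had risen with the spike-in probes. With the median of all detected probes of a gene in place of the brightest, the median of the MAP2 kinases turned positive (0.11) and that of the MAP kinases negative (-0.25).

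At 20 h, Map2k6 (-1.08 ± 0.20) had fallen, Spred3 (1.21 ± 0.33) had risen, and 3 genes induced through ERK had fallen, Egr1 (-2.03 ± 0.20) and, named after their values were seen, Egr2 (-2.34 ± 0.30) and Hbegf (-1.79 ± 0.21). At 32 h, Map2k6 (-1.12 ± 0.21), Egr1 (-2.15 ± 0.20), Egr2 (-2.08 ± 0.32) and Hbegf (-1.55 ± 0.21) had fallen. No other gene of the 10 lists had passed 2-fold at 20 h or 32 h, where 0.809% and 1.26% of all genes had risen and 1.97% and 1.52% had fallen. Between 20 h and 32 h, 0 genes of the 10 lists differed by 2-fold. The calls of list genes at these times were not repeated under other scalings.

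**Figure D3:**
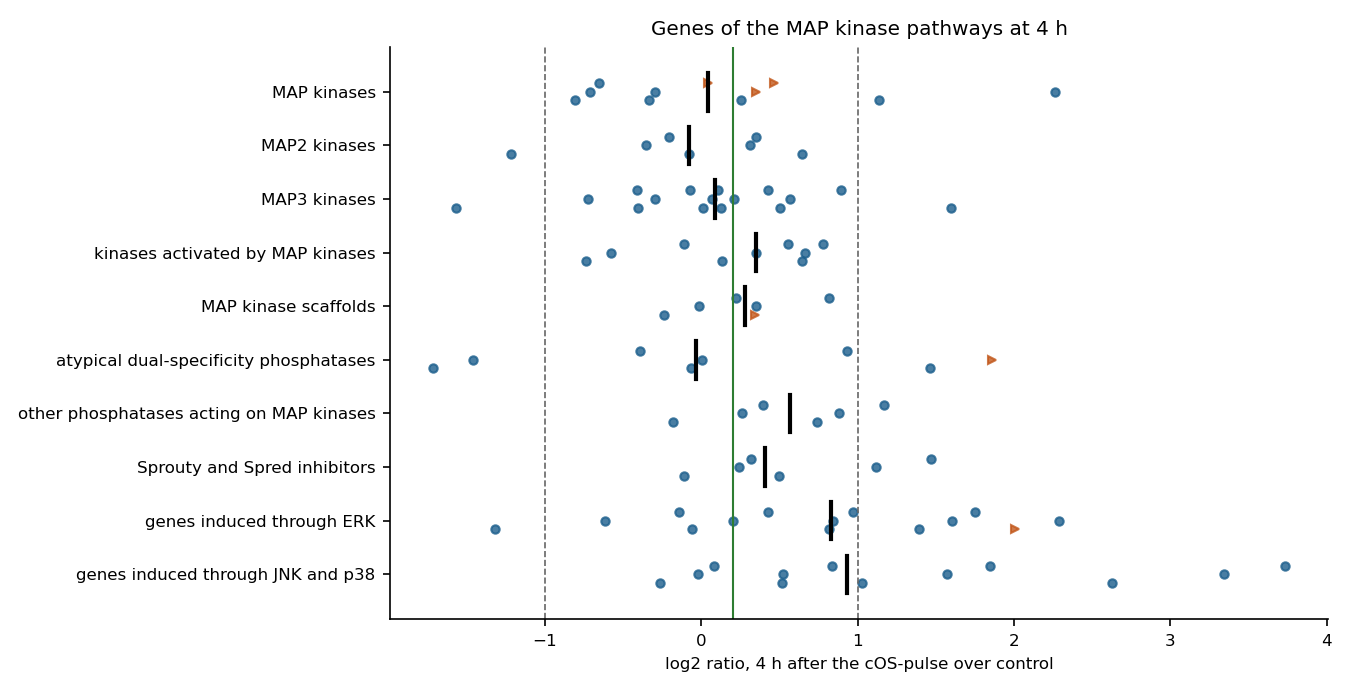
Log2 ratio at 4 h over the control (x axis) of each gene of 10 lists of MAP kinase pathway genes (y axis), with measured ratios as circles, bounds as triangles, list medians as black bars, the median of all genes (0.20) as a green line and dashed lines at 2-fold. The medians run from -0.08 for MAP2 kinases to 0.93 for genes induced through JNK and p38.

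The promoters of the members were read from RefSeq (build GRCm38.p6), since several members moved together at 4 h. 8 of the 10 members have an entry in the set of promoters used here, and Dusp4 and Dusp9 do not. The 250 bases before the start of each gene were searched on both strands for 6 motifs, and the share of all 32851 promoters with a match is given beside each. They were the cyclic AMP response element or CRE, TGACGTCA (1.55%), its shorter core TGACG (17.8%), which every CRE contains, the AP-1 motif TGANTCA (6.75%), the core of the antioxidant response element TGACNNNGC (10.2%), a pair of heat shock units GAANNTTC (6.69%) and the E-box CACGTG (6.02%). Other overlaps between these motifs are possible where their letters allow them. The full CRE was found in Dusp8, with 2 matches, the nearer of which begins 63 bases before the start, and in Dusp1, with 1 match at 143. The shorter core was also found outside a CRE in Dusp1 at 191, in Dusp5 at 55 and in Dusp16 at 70. The antioxidant core was found in Dusp1 at 133 and Dusp5 at 111, the E-box in Dusp1 at 126 and Dusp2 at 109, and the heat shock pair in Dusp16 at 25. The AP-1 motif was found in none of the 8, and Dusp6, Dusp7 and Dusp10 had no match to any of the 6. A match is a description of the letters, and binding was not measured.

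The 150 bases before the start are shown for the 3 members with an entry that had risen at 4 h, and for Dusp1, the other member with a full CRE. The stretch of Dusp8 is chr7:142095285-142095434 on the minus strand, that of Dusp1 chr17:26508473-26508622 on the minus strand, that of Dusp5 chr19:53528995-53529144 on the plus strand, and that of Dusp10 chr1:184034231-184034380 on the plus strand. Each reads 5′ to 3′ toward the start, and capitals mark a CRE or its shorter core on either strand.
Dusp8: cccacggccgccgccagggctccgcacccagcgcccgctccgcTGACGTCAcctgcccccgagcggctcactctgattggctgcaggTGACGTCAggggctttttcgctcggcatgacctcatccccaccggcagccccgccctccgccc
Dusp1: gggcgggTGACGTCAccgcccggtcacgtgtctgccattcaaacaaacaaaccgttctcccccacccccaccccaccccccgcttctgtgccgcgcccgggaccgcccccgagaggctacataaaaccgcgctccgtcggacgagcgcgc
Dusp5: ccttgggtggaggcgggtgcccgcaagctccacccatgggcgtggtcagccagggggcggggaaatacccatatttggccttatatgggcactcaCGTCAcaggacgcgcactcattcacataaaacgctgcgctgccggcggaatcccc
Dusp10: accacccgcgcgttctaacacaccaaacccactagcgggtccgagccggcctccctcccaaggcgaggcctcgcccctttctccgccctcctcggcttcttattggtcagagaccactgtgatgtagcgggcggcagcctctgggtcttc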

How the data were processed

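Gene expression was measured on 4 one-color Agilent arrays of 1 slide, 1 per condition. Per the file headers, the authors deposited an intensity for each spot from Agilent Feature Extraction 10.7.3.1, with a spatial trend subtracted, multiplicative detrending and surrogate values near background, and its error. The authors deposited other columns as flags of 0 or 1, among them those for signals well above background and for outliers. A second deposited table gives the same intensity values, unlogged and divided by a constant for each array. Spots with an outlier flag were dropped, the log2 intensities of a probe were averaged, and arrays were scaled by subtracting the 75th percentile of all non-control probes. Detection needed 50% or more of the spots of a probe to be well above background, and the threshold was 2-fold. Between 125 and 161 spots per array were left out as outliers and 0 were saturated. Errors of ratios were propagated from both spots.

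The members and lists were chosen with earlier results of these data known. Named were all members; of each of the 10 lists the 4 genes with the largest absolute measured ratio at 4 h and any gene past 2-fold by a bound; and the 3 genes nearest to each of the 2 members detected on all arrays with the largest absolute ratio at 4 h. The lists held MAP kinases, MAP2 and MAP3 kinases, kinases activated by MAP kinases, scaffolds, atypical dual-specificity phosphatases, other phosphatases acting on MAP kinases, Sprouty and Spred inhibitors, and genes induced through ERK or through JNK and p38. Marker lists covered fibroblast, epithelial, endothelial, leukocyte, neuronal and muscle cells.

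Alternatives were scaling by the median, by the 75th percentile of the commonly detected probes, by quantile normalization, by 8 spike-in probes or not at all, normexp background with an offset of 50, outlier spots kept, the deposited table, detection on both arrays, no detection filter, the flag for positive and significant signals, thresholds of 1.5-fold and 3-fold, and for lists the median of the detected probes of a gene. Added after the data were seen were spike-in scaling without 1 deviant probe and, under the scalings, the list counts and the order of the arrays. Scaling and calling were tested on simulated data, with changes written into 200 probes of the control array. The spike-in scaling and the normexp correction were not covered by that test. SAM, named in the methods of the study, needs replicates and was not run, and which arrays would form its pairs is not given in the sources used here. Calculations used Python 3.11.15, numpy 2.4.6, pandas 2.3.3, matplotlib 3.10.9, and limma 3.58.1 in R 4.3.3.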

Additional observations from a re-analysis of the deposited data

Results flagged for a closer look

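Named here are members whose measured ratios over the control had opposite signs at 4 h and later, each more than 2 scanner errors from 0. There were 2, and Dusp6, also positive at 4 h and negative later, had later ratios within 2 errors of 0. Over 6 other scalings and normexp background correction, 7 settings in all, the ratio of Dusp9 at 4 h stayed beyond 2 errors in 2 and that at 20 h in 5. The ratios of Dusp10 stayed beyond 2 errors in 7 at 4 h, 5 at 20 h and 7 at 32 h. For Dusp9, the log2 ratio at 4 h exceeded that at 20 h by 1.70, with a positive ratio at 4 h and a negative one at 20 h. For Dusp10, the ratio at 4 h exceeded that at 20 h by 2.67 and that at 32 h by 3.01, again with a positive ratio at 4 h and negative ones later. Each difference was larger than 2 errors of the scanner software, and with 1 array per condition none of the differences was tested. The ratios share the control array.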

How the results depend on the processing

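At 4 h, 4 phosphatase probes had risen under every scaling, with outlier spots kept and with the deposited table, and 3 with normexp background, with detection required on both arrays and at 3-fold. Of all probes, 6.77% had risen with outlier spots kept and 6.69% with the deposited table. In the settings that gave 3, the shares were 4.11%, 4.46% and 2.6%. The number of phosphatase probes was 7 without a detection filter, 7 with the flag for positive and significant signals and 9 at 1.5-fold, where 13.8%, 13.8% and 14.9% of all probes had risen. At 20 h, the probes that had fallen numbered 1 with the 75th percentile of the commonly detected probes, 1 without a detection filter, 1 with the positive and significant flag and 2 at 1.5-fold, and those that had risen numbered 2 without a filter and 2 with that flag, all compared with 0. Of all probes, 1.92%, 5.49%, 5.49% and 4.29% had then fallen, and 2.76% and 2.76% had risen. At 32 h, the number that had fallen was 0 without scaling, 0 with normexp background, 0 with detection on both arrays, 0 at 3-fold and 2 at 1.5-fold, compared with 1, where 1.02%, 0.690%, 0.758%, 0.451% and 3.96% of all probes had fallen. Between 20 h and 32 h, 2 probes were higher without a filter and 2 with the positive and significant flag, compared with 0, and 2.28% of all probes were higher with each. A looser filter or threshold admits more probes by construction, and the cause of the other changes was not tested. Of the counts of members, 96, among them those under the scalings at 4 h, stayed within 1.5 times the value reported, and 16 did not. Most of the 96 were counts of 0 that stayed 0, so they say little about how firm the other counts are. Of the ratios of single probes, 298 stayed within 1 scanner error of the value reported (for bounds, the error of the detected spot) and 59 moved further, and 0 called ratios changed sign. With outlier spots kept or with the deposited table a ratio could hardly move. No member spot was flagged, and that table holds the same intensities divided by a constant. At 4 h the largest shift of the median of all probes by scaling was -0.40. A called ratio lies at least 1 from 0, so a change of sign was hardly possible. Of the list medians, 25 stayed within the median scanner error of the measured genes of the list and 45 moved further, and a median near 0 could change sign within that error. Of the list counts, 90 stayed within 1.5 times and 30 did not. Signal over background limits the dim probes of Dusp2, Dusp5, Dusp8, Dusp9 and Dusp16, whose ratios rest on bounds or on errors above those of brighter probes. The errors cover the spot alone, and the 4 arrays share 1 slide and 1 control. The label of the control gives 4 h, so at 20 h and 32 h a change with time in culture cannot be told apart from a change after the pulse.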
